A study of Homo sapiens with 7 samples.

Results

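The 34 genes described here encode the machinery of mitosis: the cyclins and kinases that start it, the kinesins that move chromosomes and spindle poles, the centromere and checkpoint proteins, the proteins that trigger anaphase, the spindle and midzone proteins, and a pair of chromosome proteins. They were chosen by symbol, and all 34 were found among the 18817 gene rows of the count tables. All 34 also passed the filter on low counts, which left 13566 genes for testing. Their transcripts were followed in H4 cells, a human neuroglioma line, that carried opto-PKR (Cry2Olig-PKR), a fusion of the kinase PKR to a protein that clusters under blue light. The question was how the transcriptome changes over time once light has switched on the integrated stress response through this kinase. The cells were lit continuously on an optoPlate device at 7.5 mcd and lysed after 0, 60, 120, 240, 480, 600 or 720 min, and the 0 min cells carried the same construct.

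Each time is 1 library, so no time has a replicate, and light and time in the plate cannot be told apart. No illuminated culture lacking opto-PKR was analysed here. A trend or bend p-value therefore measures scatter about a fitted curve over time, not the spread between cultures. The 480 min table stops at NME1-NME2 in alphabetical order, so NUF2, NUSAP1, PLK1, PRC1, PTTG1, TOP2A, TPX2, TTK and UBE2C have no value at 480 min, and the other 25 members do. The 6 complete tables held 7048253 to 8911818 transcripts each, and the total at 480 min was 5266123. Of markers of this line, VIM held 5160 to 6927 and CD44 3744 to 5904 transcripts per library, whereas NES held 2 to 11 in the lit libraries and 14 at 0 min. The lineage genes SOX2 and OLIG2 held 139 to 426 and 49 to 179 transcripts in the lit libraries with a value, against 306 and 43 at 0 min, so both moved during the course, and their part in the results was not tested. GFAP and S100B were also looked for as glial markers, and no level was obtained for either. The immune, endothelial, epithelial and liver markers PTPRC, PECAM1, EPCAM and ALB held at most 7. EIF2AK2, the gene of PKR, held 598 to 1078 transcripts in the lit libraries and 1598 at 0 min, and transcripts of the construct and of the cell's own gene were not told apart.

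Mitosis runs on a pulse of transcription. In quiescence and G1 the DREAM complex represses promoters that carry a cell cycle homology region (CHR). As cells pass through G2, its MuvB core works there with MYBL2 and FOXM1 as an activator, NF-Y acts at CCAAT boxes, and CDK1 with its B-type cyclins then drives entry into mitosis. The anaphase-promoting complex (APC/C) ends it by marking securin and cyclin B for destruction. PKR phosphorylates the translation factor eIF2α, which lowers initiation on most mRNAs and favours a set of stress transcripts. In a bulk library, fewer cells in G2 and mitosis and less RNA per cell cannot be told apart.

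The promoters of 7 members that passed a test over time are shown because 5 of them hold both elements that this gene family is known for. The windows are RefSeq sequence on GRCh38.p14, from 175 bases before the annotated start to 25 bases from it, with capitals on CHR letters (TTTGAA or TTCGAA on either strand, so also TTCAAA) and on CCAAT letters (CCAAT or ATTGG). KIF20A (chr5:138178937-138179136, plus strand), DLGAP5 (chr14:55191561-55191760, minus strand) and BUB1 (chr2:110678039-110678238, minus strand) belong to the members that fell. KIF23 (chr15:69414174-69414373, plus strand) and ANLN (chr7:36389687-36389886, plus strand) belong to those with an upward bend, and PLK1 (chr16:23678714-23678913, plus strand) and CDC20 (chr1:43358806-43359005, plus strand) to those with a downward one.
KIF20A: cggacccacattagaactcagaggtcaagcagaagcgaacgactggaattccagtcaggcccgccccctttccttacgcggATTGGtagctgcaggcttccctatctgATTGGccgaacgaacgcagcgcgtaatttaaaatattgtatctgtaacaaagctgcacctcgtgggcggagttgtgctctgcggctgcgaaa
DLGAP5: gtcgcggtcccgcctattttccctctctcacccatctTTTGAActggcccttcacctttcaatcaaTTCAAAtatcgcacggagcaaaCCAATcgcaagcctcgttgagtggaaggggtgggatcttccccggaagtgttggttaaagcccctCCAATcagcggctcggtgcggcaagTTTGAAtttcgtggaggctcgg
BUB1: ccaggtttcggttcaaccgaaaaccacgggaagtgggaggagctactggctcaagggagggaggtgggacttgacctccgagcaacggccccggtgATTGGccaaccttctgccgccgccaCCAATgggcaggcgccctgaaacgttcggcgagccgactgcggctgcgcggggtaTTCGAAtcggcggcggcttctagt
KIF23: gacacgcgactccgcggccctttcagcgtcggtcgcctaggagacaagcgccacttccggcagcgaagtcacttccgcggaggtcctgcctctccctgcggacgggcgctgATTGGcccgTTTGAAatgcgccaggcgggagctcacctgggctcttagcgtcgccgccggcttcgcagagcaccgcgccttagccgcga
ANLN: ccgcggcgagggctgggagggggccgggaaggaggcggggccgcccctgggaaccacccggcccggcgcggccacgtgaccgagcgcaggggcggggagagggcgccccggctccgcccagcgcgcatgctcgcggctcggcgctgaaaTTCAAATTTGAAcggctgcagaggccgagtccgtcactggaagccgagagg
PLK1: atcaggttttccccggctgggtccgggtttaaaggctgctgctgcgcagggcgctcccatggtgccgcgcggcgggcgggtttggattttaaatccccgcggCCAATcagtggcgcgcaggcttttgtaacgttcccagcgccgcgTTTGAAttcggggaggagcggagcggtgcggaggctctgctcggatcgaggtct
CDC20: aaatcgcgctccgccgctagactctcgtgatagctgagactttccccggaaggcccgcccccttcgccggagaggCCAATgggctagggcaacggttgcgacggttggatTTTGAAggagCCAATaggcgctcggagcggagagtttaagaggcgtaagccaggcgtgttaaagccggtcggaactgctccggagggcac
KIF20A held CCAAT letters 94 and 67 bases before the start and no CHR letters in this window. In PLK1 the CHR letters began 29 bases before the start and the CCAAT letters 73 bases before it. KIF23 had them 55 and 64 bases before it, and ANLN had a pair of CHR matches that touch, 26 and 20 bases before it, with no CCAAT.

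Over the longer RefSeq window of 250 bases before to 50 after the start, 29 of the 34 members had an entry (AURKA, BIRC5, TPX2, TTK and UBE2C had none). CHR letters stood in 22 of these 29 (75.9%), against 19.5% of the 27305 genes with an entry. CCAAT letters stood in 23 of 29 (79.3%), against 39.7% of all genes, and both in 18 of 29 (62.1%), against 7.85%. In a few promoters the letters of the 2 motifs overlap. By role, CHR letters were found in 8 of 8 centromere and checkpoint genes and 4 of 7 cyclins and entry kinases, and in 2 of 5 kinesins. The only CHR letters searched for were TTTGAA and TTCGAA on either strand, so a gene without them is not shown to lack a CHR. These are matches of letters only, and binding was not measured.

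The median level of the mitotic genes was lower late in the course, and few of them moved by as much as 2-fold. Expression is given in CPM (transcript counts scaled by TMM), and each lit library is compared with 0 min as a log2 ratio. Each ratio has an exact binomial 95% interval that covers counting error only. The interval treats the estimated transcript numbers as if they were counted. The median log2 ratio over the members, in order from 60 to 720 min, was 0.01, −0.04, −0.17, −0.21 (25 members), −0.31 and −0.30. For every gene compared, members or not, the median stayed between −0.02 and 0.02. The number of the 34 members below their 0 min level was 16 in the 60 min library and 25 after 240 min, and reached 28 after 600 min and 29 after 720 min. The step with most members going down was the one from 120 to 240 min, in which 28 of 34 had a lower level than before.

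No member was 2-fold higher at any time, and KIF20A alone was 2-fold lower, at 600 and 720 min (with read counts PTTG1 and AURKB also passed 2-fold lower). Across the whole table, with a minimum of 50 counts in one of the paired libraries, the shares at least 2-fold lower were 0.375%, 2.59%, 5.82%, 6.51%, 4.35% and 4.20% from 60 to 720 min. The share at least 2-fold higher was 2.07%, 5.89%, 10.5%, 9.09%, 6.16% and 5.00% at the same times. The 1 of 34 members that was 2-fold lower at 600 and at 720 min is thus near the background share.

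**Figure D1:**
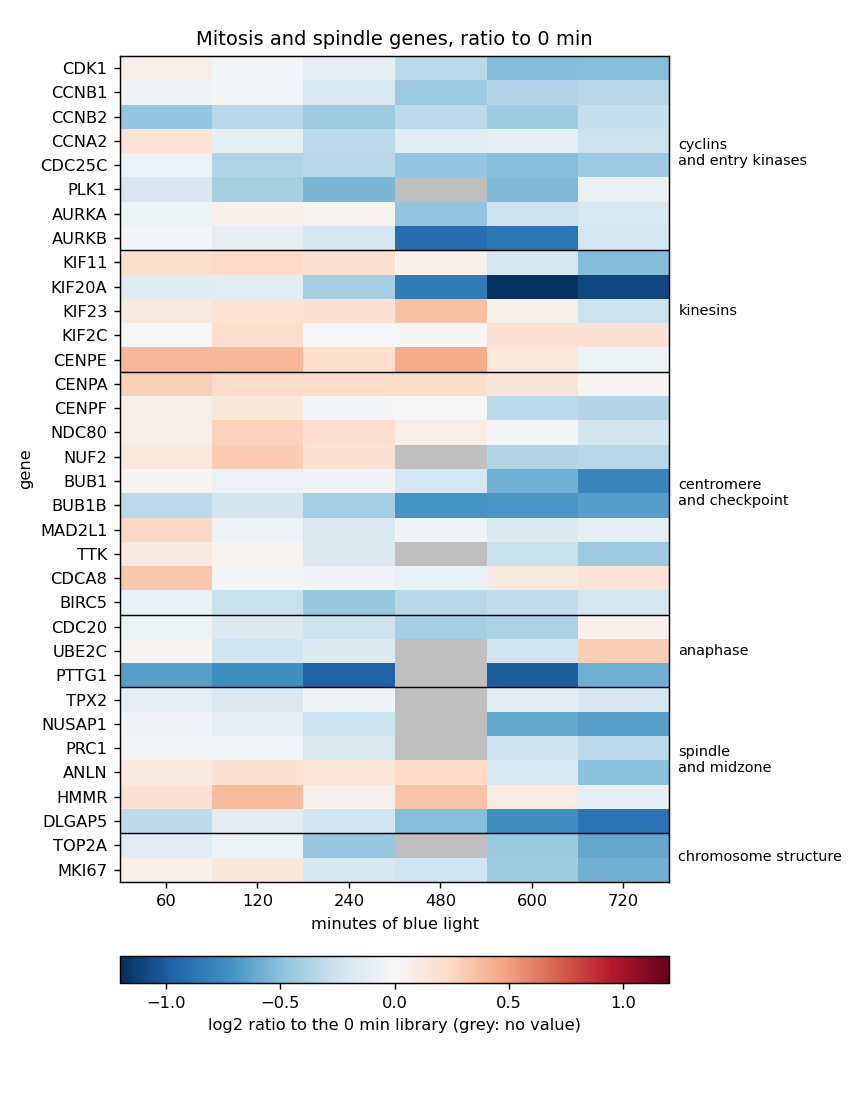
Log2 ratio of each of the 34 members (rows, by role) to the 0 min library at each later time (columns, minutes of blue light). Blue is lower and red higher than 0 min, and grey marks the 9 members with no value at 480 min. Blue fills most of the 600 and 720 min columns, and KIF20A reaches −1.18 at 600 min.

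A straight trend over minutes (edgeR's quasi-likelihood test, Benjamini-Hochberg adjusted over 13566 genes, threshold 0.05) gave 6 falling members and none that rose. These were KIF20A, DLGAP5, BUB1, NUSAP1, MKI67 and CDK1. Of all tested genes 2.93% fell and 3.92% rose. At an unadjusted p under 0.05, 13 members fell and 0 rose, where 1517 of all 13566 tested genes fell and 1619 rose. DESeq2 gave 7 falling members, these 6 and BUB1B, and 0 rising, against 728 falling and 866 rising of all tested genes. The fitted change over 720 min was negative in 32 of 34 members, with a range from −1.22 to 0.18 and a median of −0.36, against a median of −0.02 over all tested genes. A bend, the difference on the log2 scale between the fitted middle of the course and the average of its fitted ends, passed for 6 others. It was downward for PTTG1, PLK1 and CDC20 and upward for ANLN, KIF23 and KIF11, where 14.3% of all tested genes bent down and 17.0% bent up. The members' shares of bends are below the background shares and their share of falling trends is above it, with no test of either difference.

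These counts rested on single libraries. The number of falling members was 0 without the 600 min library, 1 without 60 or 120 min, 2 without 720 min and 3 without 480 min. Over all tested genes the number falling also went down, from 398 to 49 without 600 min and 120 without 60 min. It was 152, 156 and 252 without 120, 720 and 480 min. There were 0 downward bends among the members without 0 min and 1 without 720 min. Over all tested genes downward bends went from 1935 to 791 and 1705 in these fits. The members' upward bends numbered 0 without the 0, 480 or 720 min library and 1 without the 120, 240 or 600 min library. Over all tested genes upward bends went from 2307 to 1155, 2224 and 2200 without 0, 480 and 720 min. Without 120, 240 and 600 min they numbered 1909, 742 and 2309. The median fitted trend of the members moved little, from −0.38 to −0.32 over these fits, and 29 to 32 of 34 stayed negative. With time on a log scale the trends of CDK1, BUB1, NUSAP1, DLGAP5 and MKI67 and the bends of PLK1, CDC20, ANLN and KIF23 lost their calls (adjusted p = 0.0607 to 0.411), and with time as a rank the same 5 trends and the bend of CDC20 did (0.0518 to 0.0929).

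**Figure D2:**
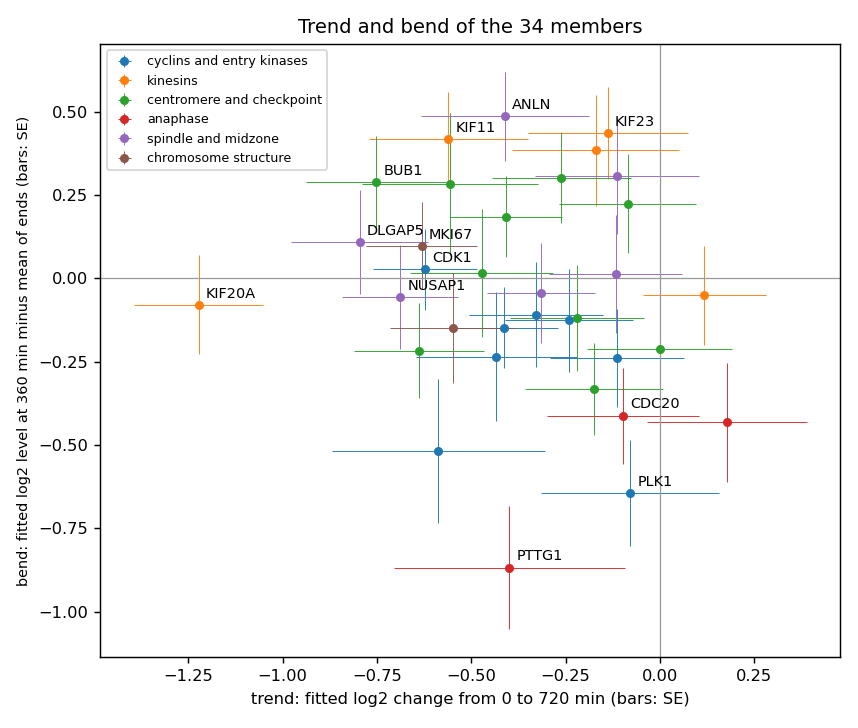
Fitted log2 change from 0 to 720 min (x axis) against fitted bend (y axis) for the 34 members, coloured by role, with bars of 1 SE and the names of the 12 members that passed either test. Points lie left of 0 for 32 of 34 members, and no member passed both tests.

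The cyclins and entry kinases were lower in every member at 600 and at 720 min. Their median log2 ratio was −0.04, −0.10, −0.26, −0.43 (7 genes), −0.47 and −0.27 from 60 to 720 min. CDK1, the kinase that drives mitotic entry, measured 269.6, 285, 266, 250.2, 216, 188 and 189 CPM at 0, 60, 120, 240, 480, 600 and 720 min. Its 2 last libraries were its lowest, at 69.9% and 70.0% of 0 min, and its fitted change was −0.62 ± 0.14 (SE, adjusted p = 0.0300). That call was lost without the 60, 120, 480, 600 or 720 min library (adjusted p = 0.0576 to 0.185).

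CCNB1, the main cyclin partner of CDK1, had 283, 277, 279, 249, 209.8, 221 and 225 CPM over the same times and did not pass the trend test (adjusted p = 0.124). CCNB2, the second B-type cyclin, had 317, 229, 252, 236, 254, 235 and 261 CPM. All 6 of its lit libraries were below the 0 min one, and the step came within the first hour, with a log2 ratio at 60 min of −0.47 (95% interval −0.56 to −0.38). CCNA2, the cyclin of S phase and G2, ranged over 184 to 257 CPM, and CDC25C, the phosphatase that activates CDK1, over 14.5 to 20.8 CPM. Neither passed a test.

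PLK1, the polo-like kinase of centrosome maturation and mitotic entry, went down and came back. It measured 189, 164, 143, 129, 131 and 179 CPM at 0, 60, 120, 240, 600 and 720 min, so the 240 and 600 min libraries were the lowest and the 720 min library was near 0 min. Its bend was −0.64 ± 0.16 (SE, adjusted p = 0.0102) and was lost without the 0, 240 or 720 min library (adjusted p = 0.0563 to 0.0698). AURKB, the kinase of the chromosomal passenger complex, had 98.4, 97.0, 91.7, 85.4, 52.1, 53.8 and 85.2 CPM over the 7 times. Its low libraries were those of 480 and 600 min, with log2 ratios of −0.91 (95% interval −1.08 to −0.76) and −0.87 (95% interval −1.04 to −0.71), and neither its trend (adjusted p = 0.252) nor its bend (adjusted p = 0.0894) passed. AURKA, the spindle pole kinase, ranged over 134 to 194 CPM with its lowest value at 480 min.

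The kinesins held both the deepest fall of the family and some of the genes that were higher than 0 min for most of the course. Their median log2 ratio was 0.11, 0.21, 0.18, 0.05, 0.05 and −0.25 from 60 to 720 min. KIF20A, which carries the passenger complex to the spindle midzone, measured 126, 114, 115, 95.5, 70.6, 55.5 and 59.0 CPM. Every lit library was below 0 min and the levels went down in steps from 120 to 600 min. At 600 min it stood at 43.9% of 0 min, a log2 ratio of −1.18 (95% interval −1.35 to −1.03), and at 720 min at 46.7%. Its fitted change was −1.22 ± 0.17 (SE, adjusted p = 0.0050), and the call was lost without the 600 min library (adjusted p = 0.0504).

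KIF23, a subunit of the centralspindlin complex that works on the same midzone, measured 130.2, 141, 146, 147, 166, 135 and 109 CPM. It was highest at 480 min, with a log2 ratio of 0.35 (95% interval 0.24 to 0.46), and lower than 0 min at 720 min only. Its bend was 0.44 ± 0.14 (SE, adjusted p = 0.0333), lost without the 0, 120, 240, 480, 600 or 720 min library (adjusted p = 0.0595 to 0.260). KIF11, the motor that pushes spindle poles apart, measured 84.1, 97.7, 99.6, 95.6, 86.8, 73.6 and 58.5 CPM. It was above 0 min up to 480 min and below it at 600 and 720 min. The KIF11 bend was 0.42 ± 0.14 (SE, adjusted p = 0.0426), and leaving out any 1 library ended that call (adjusted p = 0.0511 to 0.189), as did DESeq2 (0.0663) and the absence of a count filter (0.0567).

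CENPE, the kinetochore motor that brings chromosomes to the equator, had 126, 166, 166, 145, 172, 138 and 121 CPM. Its 60, 120 and 480 min libraries were the high ones, with a log2 ratio at 480 min of 0.45 (95% interval 0.34 to 0.56), and its bend did not pass (adjusted p = 0.0961). KIF2C, which takes microtubule ends apart, ranged over 99.9 to 116 CPM and was above 0 min at 600 and 720 min, where its log2 ratios were 0.18 and 0.17. It and UBE2C were the 2 members whose fitted trend was above 0, and neither passed the test.

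**Figure D3:**
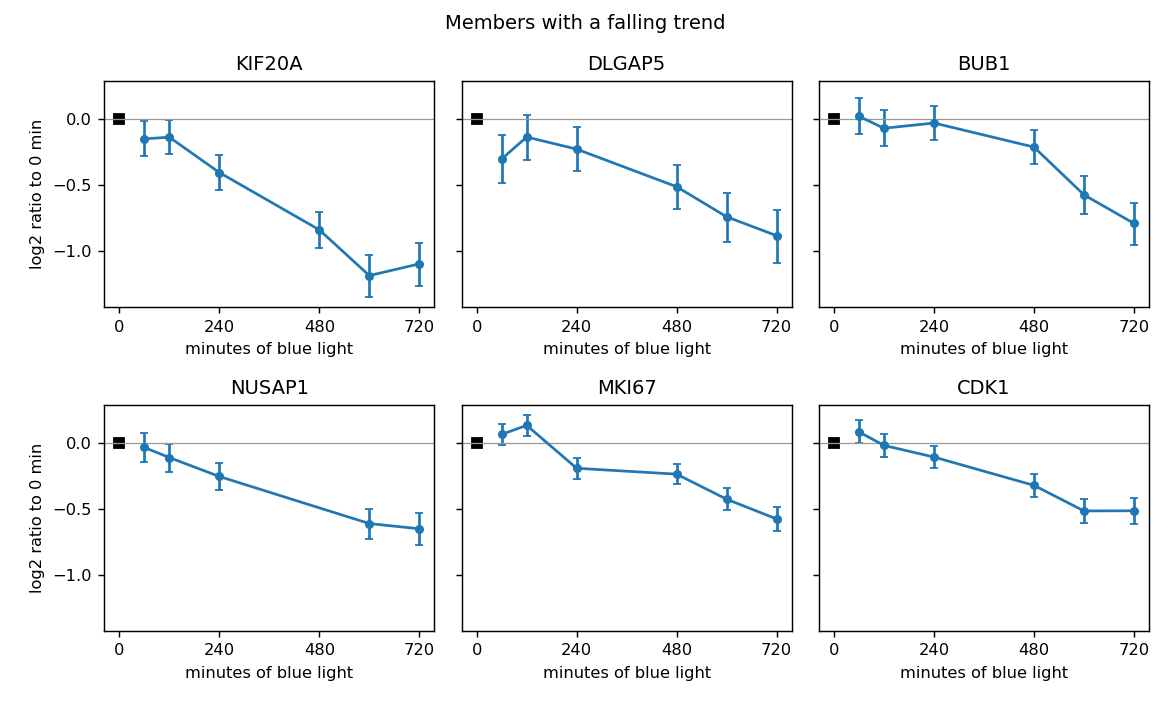
Log2 ratio to the 0 min library (y axis) against minutes of blue light (x axis) for the 6 members with a falling trend. Bars are exact binomial 95% intervals (counting error only), the black square is 0 min and NUSAP1 has no value at 480 min. All 6 are below 0 at 600 and 720 min.

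The centromere and checkpoint genes were lower than 0 min at both 600 and 720 min in 8 of 10 members. Before that they differed among themselves. At 240 min the log2 ratio was −0.40 (95% interval −0.52 to −0.27) for BUB1B and −0.45 (95% interval −0.58 to −0.32) for BIRC5, and 0.23 (95% interval 0.08 to 0.40) for CENPA. The median log2 ratio of the group at 60, 120, 240, 480, 600 and 720 min was 0.10, 0.01, −0.04, −0.07 (8 genes), −0.28 and −0.27. BUB1, a checkpoint kinase of the kinetochore, measured 114, 116, 109, 112, 98.4, 76.5 and 65.8 CPM. Its first 4 libraries lay between 109 and 116 CPM and the 600 and 720 min libraries were the low ones, at 67.1% and 57.8% of 0 min. The fitted change was −0.75 ± 0.19 (SE, adjusted p = 0.0433), and the call was lost without the 60, 120, 600 or 720 min library (adjusted p = 0.103 to 0.211) and without a filter on low counts (0.0645).

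BUB1B (BubR1), part of the complex that holds back the APC/C, measured 136, 109.8, 117, 104, 83.4, 84.2 and 86.1 CPM, with all 6 lit libraries below 0 min. Its log2 ratio was −0.71 (95% interval −0.84 to −0.58) at 480 min, and its trend of −0.64 ± 0.17 (SE, adjusted p = 0.0594) did not pass with edgeR but passed with DESeq2. CENPF, an outer kinetochore protein, measured 420.3, 441, 460.3, 416, 422, 335 and 330.0 CPM, and its 600 and 720 min libraries were the low ones. TTK (MPS1), the kinase at the head of the checkpoint, ranged over 43.6 to 63.8 CPM and was lowest at 720 min. MAD2L1, the checkpoint protein MAD2, ranged over 96.2 to 129 CPM and was highest at 60 min.

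CENPA, the histone that marks centromeres, was the 1 member whose lowest library was 0 min, with 67.3, 82.3, 79.2, 79.2, 78.2, 74.8 and 68.1 CPM. NDC80 and NUF2, which pair in the complex that grips microtubules, were both highest at 120 min, with log2 ratios of 0.28 (95% interval 0.15 to 0.41) and 0.31 (95% interval 0.11 to 0.51), and below 0 min at 600 and 720 min. CDCA8 (borealin) and BIRC5 (survivin) sit with AURKB in the passenger complex. CDCA8 had 77.5, 96.7, 76.6, 74.6, 72.9, 83.8 and 86.1 CPM and BIRC5 131, 124, 109, 96.0, 104, 107 and 114 CPM, so CDCA8 was above 0 min at 600 and 720 min while BIRC5 was below it in all 6 lit libraries. None of these passed a test.

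The 3 anaphase genes were all lower than 0 min at 120, 240 and 600 min, and all were higher at 720 min than at 600 min. CDC20, the activator that turns the APC/C on at anaphase, measured 108, 104, 96.2, 91.3, 82.2, 83.9 and 113 CPM. It was lowest at 480 and 600 min and at 720 min was level with 0 min, with a log2 ratio of 0.05 (95% interval −0.08 to 0.19). Its bend was −0.41 ± 0.14 (SE, adjusted p = 0.0466), and leaving out any 1 library ended that call (adjusted p = 0.0672 to 0.530), as did DESeq2 (0.0744) and the absence of a count filter (0.0756). UBE2C, the ubiquitin-conjugating enzyme of the APC/C, measured 197, 200.3, 167, 178, 167 and 243 CPM at the 6 times with a value and did not pass (bend adjusted p = 0.0806). It was one of 2 members, with CDC20, whose highest library was that of 720 min, though the CDC20 interval there included the 0 min level.

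PTTG1, the securin that holds separase in check, showed the earliest large change, with 186, 118, 111, 95.1, 93.9 and 124 CPM at those 6 times. Every lit library was below 0 min, the 240 and 600 min libraries lowest at 51.1% and 50.5%. At 60 min its log2 ratio was already −0.65 (95% interval −0.78 to −0.53). The bend was −0.87 ± 0.18 (SE, adjusted p = 0.0050), lost without the 0 min library (adjusted p = 0.0973). PTTG1 has near-identical copies with rows of their own, PTTG2 and PTTG3P, whose molecular counts were not all whole numbers, so reads may have been split among them. The bends of the copies were −0.66 for PTTG2 (adjusted p = 0.0889) and −0.86 for PTTG3P (adjusted p = 0.0241), and the level of PTTG1 is uncertain to that extent.

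**Figure D4:**
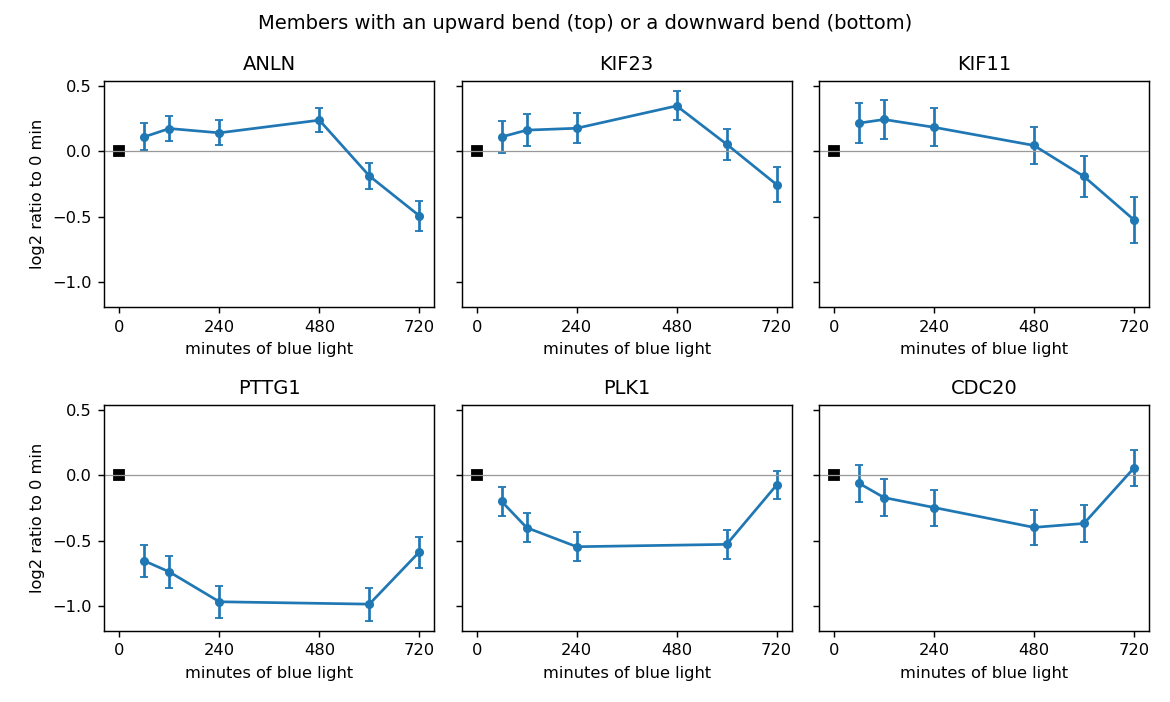
Log2 ratio to the 0 min library (y axis) against minutes of blue light (x axis) for the 6 members with a bend, upward in the top row (ANLN, KIF23, KIF11) and downward in the bottom row (PTTG1, PLK1, CDC20). Bars are exact binomial 95% intervals (counting error only) and the black square is 0 min. ANLN and KIF23 peak at 480 min, and the bottom row is higher at 720 min than at 600 min.

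From 600 to 720 min the median log2 ratio over the 34 members was −0.01, with the middle 50% between −0.16 and 0.07 and the whole range from −0.33 to 0.66. Over all genes the median was −0.0028, with the middle 50% between −0.22 and 0.21, so most members moved little in this step. AURKB stood 0.66 (95% interval 0.49 to 0.84) above its own 600 min level on the log2 scale, UBE2C 0.54 (95% interval 0.44 to 0.64), PLK1 0.45 (95% interval 0.34 to 0.57), CDC20 0.42 (95% interval 0.28 to 0.57) and PTTG1 0.40 (95% interval 0.26 to 0.54). These 5 were picked after their values were seen. Over the same step all 6 spindle and midzone genes were lower, by a median of −0.11, as were 4 of the 5 kinesins. With 1 library at each time, the spread between cultures for this step is unknown.

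The spindle and midzone genes were all below 0 min at 720 min, with a median log2 ratio of −0.41. DLGAP5 (HURP), which stabilises kinetochore fibres, measured 73.7, 59.8, 67.1, 62.9, 51.6, 44.1 and 39.9 CPM, and its 600 and 720 min libraries were the lowest at 59.8% and 54.1% of 0 min. Its fitted change was −0.80 ± 0.18 (SE, adjusted p = 0.0318), lost without the 60, 120, 480, 600 or 720 min library (adjusted p = 0.0571 to 0.167). NUSAP1, which binds spindle microtubules near chromosomes, measured 187, 182, 172.8, 156, 122 and 119 CPM at the 6 times with a value. It stepped down at each later time, and its fitted change over 6 libraries was −0.69 ± 0.15 (SE, adjusted p = 0.0362), lost without the 60, 120, 600 or 720 min library (adjusted p = 0.111 to 0.197).

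ANLN (anillin), the scaffold of the contractile ring, measured 193, 208, 217, 212, 227, 169 and 137 CPM over the 7 times. It was above 0 min up to 480 min and then the 720 min library was the lowest, at 71.1% of 0 min. The bend was 0.49 ± 0.13 (SE, adjusted p = 0.0183), lost without the 0, 480 or 720 min library (adjusted p = 0.0571 to 0.116). HMMR, which helps spindle microtubules assemble, ranged over 52.2 to 72.6 CPM and was highest at 120 and 480 min. PRC1, which bundles midzone microtubules, ranged over 249.7 to 312 CPM and TPX2, the activator of AURKA, over 68.5 to 79.0 CPM. Both were lowest at 720 min and neither passed a test.

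Of the chromosome proteins, MKI67 (Ki-67, the coat of mitotic chromosomes and a marker of proliferating cells) measured 313, 327, 343, 274, 266, 233 and 209.9 CPM. Its first 3 libraries were the high ones and 720 min the lowest, at 67.0% of 0 min. The fitted change was −0.63 ± 0.15 (SE, adjusted p = 0.0362). That call was lost without the 60, 120, 480, 600 or 720 min library (adjusted p = 0.0582 to 0.179), with read counts (0.0633) and without a filter on low counts (0.0506). TOP2A, the topoisomerase that untangles sister chromatids, measured 399.7, 366, 383, 292, 293 and 261 CPM at the 6 times with a value, with a fitted change of −0.55 ± 0.17 (SE, adjusted p = 0.0898) that did not pass.

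**Figure D5:**
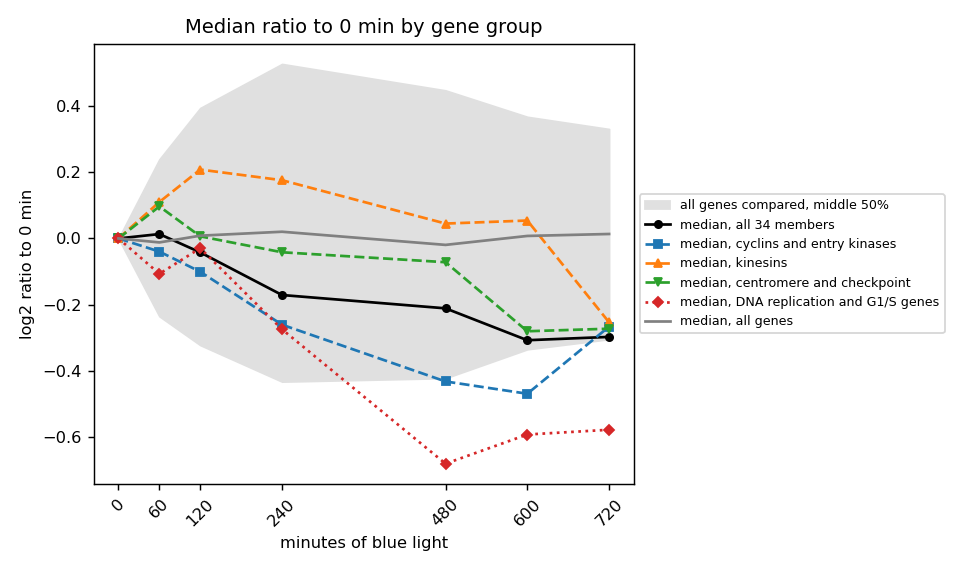
Median log2 ratio to the 0 min library (y axis) against minutes of blue light (x axis) for the 34 members, for 3 role groups among them, for 30 DNA replication and G1/S genes and for all genes compared. The grey band holds the middle 50% of all genes. At 480 min medians rest on the genes with a value there. The kinesins lie above 0 up to 600 min, the cyclins and entry kinases below 0 throughout.

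Set side by side, the medians of the cyclins and entry kinases, the kinesins and the centromere and checkpoint genes at 600 min were −0.47, 0.05 and −0.28, and at 720 min −0.27, −0.25 and −0.27. The 3 groups were not tested against each other. Each passed the falling trend in 1 gene, CDK1, KIF20A and BUB1. Across the 34, the lowest library was 720 min for 15 members, 480 min for 6, 240 and 600 min for 5 each, and 0, 60 and 120 min for 1 each. The highest was 0 min for 14 members, 120 min for 8, 60 min for 7, 480 min for 3 and 720 min for 2.

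Genes that act before mitosis give the nearest comparison. Of 30 DNA replication and G1/S genes, 7 fell and 0 rose (13 and 0 with DESeq2, and 20 and 0 at an unadjusted p under 0.05), and 5 bent down and 2 up. Of all tested genes 2.93% fell, 3.92% rose, 14.3% bent down and 17.0% bent up. With DESeq2 728 of them fell and 866 rose, and at an unadjusted p under 0.05 1517 fell and 1619 rose. The median log2 ratio of the mitotic genes was −0.31 at 600 min and −0.30 at 720 min, against −0.59 and −0.58 for the replication and G1/S genes. The difference was not tested. MCM3, a subunit of the replicative helicase, had a fitted change of −1.38 ± 0.17 (SE, adjusted p = 0.0035), CCNE2, a cyclin of S phase entry, of −1.45 ± 0.25 (SE, adjusted p = 0.0108) and GINS2, a helicase cofactor, of −1.09 ± 0.27 (SE, adjusted p = 0.0426). GINS2 also bent down, with −0.69 ± 0.15 (SE, adjusted p = 0.0071), lost on a log time scale (adjusted p = 0.413) and without the 240 min library (adjusted p = 0.0587). FEN1, the flap nuclease of lagging strand synthesis, had a bend of −0.71 ± 0.18 (SE, adjusted p = 0.0136). The CCNE2 call was lost without the 600 min library (adjusted p = 0.0684), the GINS2 trend without the 0, 60, 120, 480 or 600 min library (adjusted p = 0.0692 to 0.193) and FEN1 without the 240 or 720 min library (adjusted p = 0.0825 to 0.0922).

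Wider lists of genes that act with the members are given by count, and their medians stood as follows, where the median over all tested genes was −0.02 for the trend and 0.01 for the bend. The median fitted trend was −0.65 for the replication genes, −0.44 for other mitotic kinesins, −0.43 for other spindle, centriole and cytokinesis genes, −0.39 for condensin and cohesin and −0.29 for brakes and phosphatases. It was −0.15 for the regulators, −0.15 for other kinetochore and centromere genes and 0.04 for APC/C genes. The median bend was 0.42 for other kinesins, 0.22 for condensin and cohesin, and between −0.08 and 0.19 for the other lists. With time on a log scale the calls named in these lists were lost for LIN54, CCNF, SPC25, MAD1L1, KIF22, DEPDC1, NCAPH and FEN1 (adjusted p = 0.0638 to 0.656), and with time as a rank for CCNF, KIF22, DEPDC1, NCAPH and FEN1 (0.0531 to 0.163).

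Among 14 regulators of G2/M transcription, 1 fell, 3 bent up and 1 bent down. Of all tested genes 2.93% fell, 17.0% bent up and 14.3% bent down. In a list of 14, counts this near the shares are not a result about the list. TFDP1, the partner of E2F factors in DREAM, had a fitted change of −0.84 ± 0.17 (SE, adjusted p = 0.0274). The pocket protein RBL2 had a bend of 1.10 ± 0.18 (SE, adjusted p = 0.0016), the MuvB subunits LIN54 and LIN9 of 0.94 ± 0.19 (SE, adjusted p = 0.0047) and 0.75 ± 0.23 (SE, adjusted p = 0.0265), and MYBL2, the activator that joins MuvB, of −0.68 ± 0.16 (SE, adjusted p = 0.0080). RBL2, LIN54 and LIN9 were thus high in mid-course and MYBL2 low. Calls were lost for TFDP1 without the 60, 120, 600 or 720 min library (adjusted p = 0.0850 to 0.147), for LIN9 without the 0 or 240 min library (adjusted p = 0.163 to 0.207) and for MYBL2 without the 0 or 240 min library (adjusted p = 0.0597 to 0.0614). FOXM1, named for its role after its values were seen, had a trend of −0.26 ± 0.20 (SE, adjusted p = 0.485).

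Among 17 brakes and phosphatases of mitotic entry no trend passed with edgeR, with 2 rising and 4 falling at an unadjusted p under 0.05 and 1 each way with DESeq2 (CDKN1A up, FBXO5 down). Of all 13566 tested genes 1619 rose and 1517 fell at that unadjusted threshold, and with DESeq2 866 rose and 728 fell. In this list 1 gene bent up and 1 down, below the shares over all tested genes (17.0% and 14.3%). MASTL (Greatwall), the kinase that holds phosphatase PP2A off in mitosis, bent up with 1.00 ± 0.22 (SE, adjusted p = 0.0065), lost without the 240 min library (adjusted p = 0.0601). CCNF, which targets proteins for destruction in G2, bent down with −0.51 ± 0.17 (SE, adjusted p = 0.0438), lost without the 0, 60, 120, 240, 480 or 720 min library (adjusted p = 0.0619 to 0.174) and with read counts, no count filter or DESeq2 (0.0508 to 0.0636).

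Among 34 tested genes of the kinetochore and centromere beyond the members, 1 fell, 3 bent up and 2 bent down. Of all tested genes 2.93% fell, 17.0% bent up and 14.3% bent down. At this adjusted threshold the falls are near that share and the bends below it, which is not a result about this list. At an unadjusted trend p under 0.05, 8 fell and 2 rose, where 1517 of all 13566 tested genes fell and 1619 rose. With DESeq2 2 fell (CENPI and DSN1) and 2 rose (CENPH and SKA1), against 728 and 866 of all tested genes. These differences were not tested. DSN1, of the Mis12 complex, had a fitted change of −1.18 ± 0.18 (SE, adjusted p = 0.0067), lost without the 600 min library (adjusted p = 0.0603). SPC25, a partner of NDC80, had a bend of −0.81 ± 0.17 (SE, adjusted p = 0.0051) and the checkpoint protein MAD1L1 of −0.73 ± 0.16 (SE, adjusted p = 0.0061). The SPC25 call was lost without the 240 min library (adjusted p = 0.0682) and that of MAD1L1 without the 720 min library (adjusted p = 0.129).

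Of 10 other mitotic kinesins 5 bent up and 1 down, and none passed a trend with edgeR (0 rising and 1 falling at an unadjusted p under 0.05, and with DESeq2 0 rising and 1 falling, KIF4A). Of all 13566 tested genes 17.0% bent up and 14.3% bent down. At that unadjusted threshold 1619 of them rose and 1517 fell, and with DESeq2 866 rose and 728 fell. KIF20B, a paralogue of KIF20A, had a bend of 0.85 ± 0.17 (SE, adjusted p = 0.0045), KIF18A, which damps chromosome movement, of 0.76 ± 0.16 (SE, adjusted p = 0.0062), KIF24, a centriole kinesin, of 1.51 ± 0.34 (SE, adjusted p = 0.0088) and KIF22, which acts on chromosome arms, of −0.62 ± 0.18 (SE, adjusted p = 0.0222). KIF20B thus passed for a bend and KIF20A for a trend, which are unlike measures. The trend of KIF20B was also negative, at −0.29 ± 0.35 (SE, adjusted p = 0.670). The bend of KIF20A was −0.08 ± 0.15 (SE, adjusted p = 0.705). The calls were lost for KIF24 without the 240 min library (adjusted p = 0.0762) and for KIF22 without the 240, 480 or 720 min library (adjusted p = 0.0548 to 0.296).

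Of 26 other spindle, centriole and cytokinesis genes 5 bent up and 2 down, against 17.0% and 14.3% of all tested genes. The upward count is near its share and the downward count below it, which is not a result about this list. ECT2, the exchange factor that starts cytokinesis downstream of centralspindlin, had a bend of 1.00 ± 0.19 (SE, adjusted p = 0.0037), the centriole kinase PLK4 of 0.90 ± 0.23 (SE, adjusted p = 0.0121), its partner STIL of 0.75 ± 0.20 (SE, adjusted p = 0.0142) and DEPDC1 of 0.54 ± 0.15 (SE, adjusted p = 0.0184). Calls were lost for PLK4 without the 0 or 240 min library (adjusted p = 0.140 to 0.144), for STIL without the 0 or 240 min library (adjusted p = 0.0756 to 0.222) and for DEPDC1 without the 480 or 720 min library (adjusted p = 0.0943 to 0.206). No trend passed with edgeR in this list (0 rising and 11 falling at an unadjusted p under 0.05, and with DESeq2 0 rising and 2 falling, FAM83D and SPAG5). Of all 13566 tested genes 1619 rose and 1517 fell at that unadjusted threshold, and with DESeq2 866 rose and 728 fell.

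Of 16 condensin and cohesin genes 4 fell and 5 bent up, against 2.93% and 17.0% of all tested genes, and these differences were not tested. NCAPD2 and NCAPH, condensin I subunits, had fitted changes of −1.01 ± 0.16 (SE, adjusted p = 0.0095) and −1.01 ± 0.19 (SE, adjusted p = 0.0160). The cohesin subunits STAG2 and SMC3 had bends of 2.39 ± 0.47 (SE, adjusted p = 0.0084) and 0.61 ± 0.17 (SE, adjusted p = 0.0170). NCAPD2 and NCAPH thus fell, and STAG2 and SMC3 were high in mid-course. The calls were lost for NCAPD2 without the 600 min library (adjusted p = 0.0603), for NCAPH without the 60, 120, 600 or 720 min library (adjusted p = 0.0513 to 0.105) and for SMC3 without the 0 or 240 min library (adjusted p = 0.0992 to 0.148).

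Of 14 APC/C genes 3 bent up and 3 down, near the shares over all tested genes (17.0% up and 14.3% down), which is not a result about this list. None passed a trend or had an unadjusted trend p under 0.05 with edgeR, and 0 passed with DESeq2. UBE2S, which extends ubiquitin chains for the APC/C after UBE2C, had a bend of −0.95 ± 0.16 (SE, adjusted p = 0.0017) and the RING subunit ANAPC11 of −0.67 ± 0.14 (SE, adjusted p = 0.0058). CDC27 and ANAPC10, subunits that bind activators and substrates, had bends of 0.48 ± 0.13 (SE, adjusted p = 0.0142) and 0.74 ± 0.21 (SE, adjusted p = 0.0226). The bends of UBE2S and ANAPC11 were downward, as was that of CDC20. The calls of CDC27 and ANAPC10 were lost without the 0 or 240 min library (adjusted p = 0.0708 to 0.148).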

How the data were processed

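RNA of 7 H4 samples, 1 for each duration of blue light, was made into libraries with an adaptation of CEL-Seq2, which tags transcript 3′ ends and carries unique molecular identifiers (UMIs), per the labels' protocols. Reads were aligned with BWA to hg19, per the submitters' processing notes, and the sources used here give no version, annotation or counting program. The authors deposited estimated counts per gene (transcripts, from UMIs corrected for collisions), with UMI and read counts beside them. Only the column of the primer named in the labels was used; 95 other barcode columns per table were not.

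Counts were rounded, spike-ins left out of library sizes, and genes kept where 3 or more libraries had 10 or more counts. Scaling was by TMM over the 6 complete tables, with the 480 min library scaled on the genes it lists. Trend and bend over minutes were fitted with edgeR 4.0.16 (robust quasi-likelihood, R 4.3.3) on 7 libraries, or 6 for genes absent at 480 min, and adjusted together. Log2 ratios used a prior count of 2 and exact binomial intervals, which cover counting error only. These intervals were taken on the corrected transcript estimates, which exceed the UMIs seen (3597 against 2394 for CENPF at 0 min). They are therefore narrower than UMI counts would give. The 2-fold calls needed 50 counts in either library and had no test. Transcripts ranged from 7048253 to 8911818 in the 6 complete tables, and reads per UMI from 2.08 to 2.38 over all 7. The 480 min total of 5266123 covers only the genes listed there. Its scaled library size was 10126966, the largest of the 7. Alternatives were RLE size factors, DESeq2 1.42.0, UMI and read counts, other count filters, log and rank time, and leaving out each library.

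Members and lists were chosen with earlier results of these data known. Named were every member and, from each wider list, up to 4 called genes of smallest adjusted p (all called regulators and brakes). One gene that this rule names is not reported here. UMI counts were whole (tolerance 1e-06) in every library for 31 of 34 members, the exceptions being PTTG1, AURKA and BUB1B, whose reads may be shared with near-identical sequences.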

Additional observations from a re-analysis of the deposited data

How the results depend on the processing

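The downward drift of the mitotic genes kept its direction under all alternatives run, with 29 to 32 of 34 fitted trends negative. The counts of called genes moved. Falling members numbered 6, but 2 on a log time scale and 1 on a rank time scale, and 0 to 7 when 1 library was left out. Of all tested genes 398 fell, 317 and 285 on these time scales, and 49 to 721 with 1 library left out. Downward bends of members numbered 3, but 1 on a log time scale, and 0 to 2 with 1 library left out. Their upward bends numbered 3, but 1 on a log time scale, and 0 to 2 with 1 library left out. Of all tested genes 1935 bent down, 1683 on a log time scale and 543 to 1988 with 1 library left out. Those that bent up numbered 2307, 2265 and 742 to 2309 in the same fits. Falling replication genes numbered 7 with edgeR and 13 with DESeq2, against 398 and 728 of all tested genes. The causes were not tested. With read counts in place of transcripts 1 member was 2-fold lower at 240 min (PTTG1), 1 at 480 min (AURKB) and 2 at 600 min (KIF20A and PTTG1). Each call of a single named gene was checked once in every alternative fit. With 1 library left out, the call was lost in 99 of these checks and kept in 209. Under the other alternatives it was lost in 39 checks. No named trend or bend changed direction. In addition, 40 ratios of members moved by at least the distance from the middle of their counting interval to its end. A change of direction was looked for only in ratios of at least 2-fold, so for the other ratios it was not checked. No paired analysis was possible because each time is 1 library and the labels give no replicate numbers. One library per time limits every p-value, and depth limits the ratios only through the counting intervals.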
